A study of Homo sapiens with 7 samples.

Results

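Transcripts of 38 genes that build cell junctions or govern the transition between epithelial and mesenchymal states were examined in HK-2 cells given an siRNA against the glucose transporter GLUT2. The genes were chosen by symbol and are 8 classical and related cadherins, 3 catenins, 10 tight junction genes (EPCAM included), 8 desmosome genes, the gap junction gene GJA1, and 7 transition factors with vimentin. All 38 were found among the 33694 genes of the count table. HK-2 is an established line of human kidney proximal tubule cells, immortalised with papillomavirus genes, so every library comes from 1 line. The 3 siGLUT2 libraries (replicates 2 to 4, genotype label GLUT2-KD) and the 4 scrambled libraries (replicates 1 to 4, genotype label WT) came from cells transfected with 50 nM siRNA and lysed after 96 h. Both groups therefore carry an siRNA and the transfection reagent, and no untransfected cells were among the samples. No siRNA sequence is named in the labels, and with 1 siRNA reagent, loss of GLUT2 and any other action of that reagent cannot be told apart.

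Cadherins join neighbouring cells in adherens junctions by binding each other outside the cell and, through catenins, actin inside it. Tight junctions seal the space between epithelial cells with claudins and occludin, tied to the cytoskeleton by ZO proteins, and desmosomes anchor keratin filaments through desmogleins, desmocollins, plakoglobin, plakophilins and desmoplakin. In an epithelial-mesenchymal transition, factors of the SNAI, ZEB and TWIST families repress E-cadherin and other epithelial genes by binding E-box sequences, while N-cadherin and vimentin come up. The proximal tubule is unusual among epithelia in that it carries N-cadherin and cadherin-6 rather than mainly E-cadherin.

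Total counts were 5881366 to 6914302 in the siGLUT2 libraries and 5654957 to 8455963 in the scrambled libraries. SLC2A2, which encodes GLUT2, had 0 counts in each of the 3 siGLUT2 libraries, against 13, 13, 7 and 17 counts in the scrambled libraries (adjusted p = 0.0085). SLC2A2 passed the low-count filter only through its scrambled counts, so the p-value adds no separate support to these counts. The siGLUT2 libraries held fewer detected genes (13632 ± 235, n = 3, against 14924 ± 82.2, n = 4; exact two-sided permutation p = 0.0286, the smallest possible, 0.0429 adjusted over 3 measures) and more mitochondrial counts (7.33% ± 0.265 against 5.17% ± 0.264, exact permutation p = 0.0286, adjusted 0.0429). Of 10 markers of kidney tubule epithelium, the nuclear factor PAX8 and the keratins KRT8, KRT18 and KRT19 were well counted, but LRP2, the proximal tubule receptor megalin, had 0 counts in all libraries and its partner CUBN had 1. The summed level of these 10 markers was 818 to 1036 CPM in siGLUT2 libraries and 1317 to 1407 CPM in scrambled libraries. KRT8, KRT18 and KRT19 fell (-0.71 ± 0.13, -0.76 ± 0.08 and -0.97 ± 0.12), GGT1 rose (0.57 ± 0.15), and KRT8 and KRT18 have many pseudogenes that can share reads. The largest parts of the sum were KRT8 (mean 272 CPM in siGLUT2 and 445 CPM in scrambled libraries) and KRT18 (247 and 420 CPM). PAX8 values did not overlap between groups, but its change of -0.13 ± 0.09 did not pass (adjusted p = 0.333). Of 8 endothelial markers 6 were at 0, CDH5 among them, and of 8 leukocyte markers 4 were at 0, PTPRC among them. The fibroblast and pericyte markers summed to 22.8 to 31.7 CPM in siGLUT2 libraries and 15.5 to 23.6 CPM in scrambled libraries, with COL3A1 at 0 and COL1A1 higher after siGLUT2 (0.82 ± 0.27, adjusted p = 0.026). Of the 4 tested genes of this list COL1A1 alone passed, while PDGFRB, ACTA2 and RGS5 did not (adjusted p = 0.765, 0.646 and 0.939). The leukocyte list summed to 26.8 to 29.7 CPM in siGLUT2 libraries and 14.4 to 19.6 CPM in scrambled libraries, nearly all of it CD68, which rose (0.79 ± 0.22, adjusted p = 0.0085). The part of these shifts in the junction gene results was not tested.

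CPM values are TMM-scaled read counts relative to library size, and a fold change is given as the log2 of siGLUT2 over scrambled with its SE. A gene is said to rise or fall when edgeR's quasi-likelihood test gave a Benjamini-Hochberg adjusted p below 0.05 over all genes tested. Per-library values are given in the order of replicates 2, 3 and 4 for siGLUT2 and 1, 2, 3 and 4 for scrambled. Low-count filtering kept 32 of the 38 genes. Of these, 9 rose and 7 fell, while 13.9% of all 12404 genes tested rose and 14.4% fell. Their median fold change was -0.10 and that of all genes tested was -0.0029. CPM values did not overlap between groups for 19 of the 32, and for 35.1% of all genes tested. The genes were chosen with earlier results of these data known, so these comparisons with all genes are a description and no test. The calls went in both directions within the cadherin and catenin, tight junction and desmosome groups. Of the 16 calls, 10, namely 5 higher (ZEB2, CLDN12, GJA1, DSC2 and CTNNB1) and 5 lower (DSC3, F11R, CDH6, DSP and CTNND1), held under each of the 17 alternatives tried. The count of rises was 5 without scrambled replicate 2, where rises among all genes went from 1723 to 1384. In bulk RNA, fewer cells of a type and less RNA per cell cannot be told apart.

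**Figure D1:**
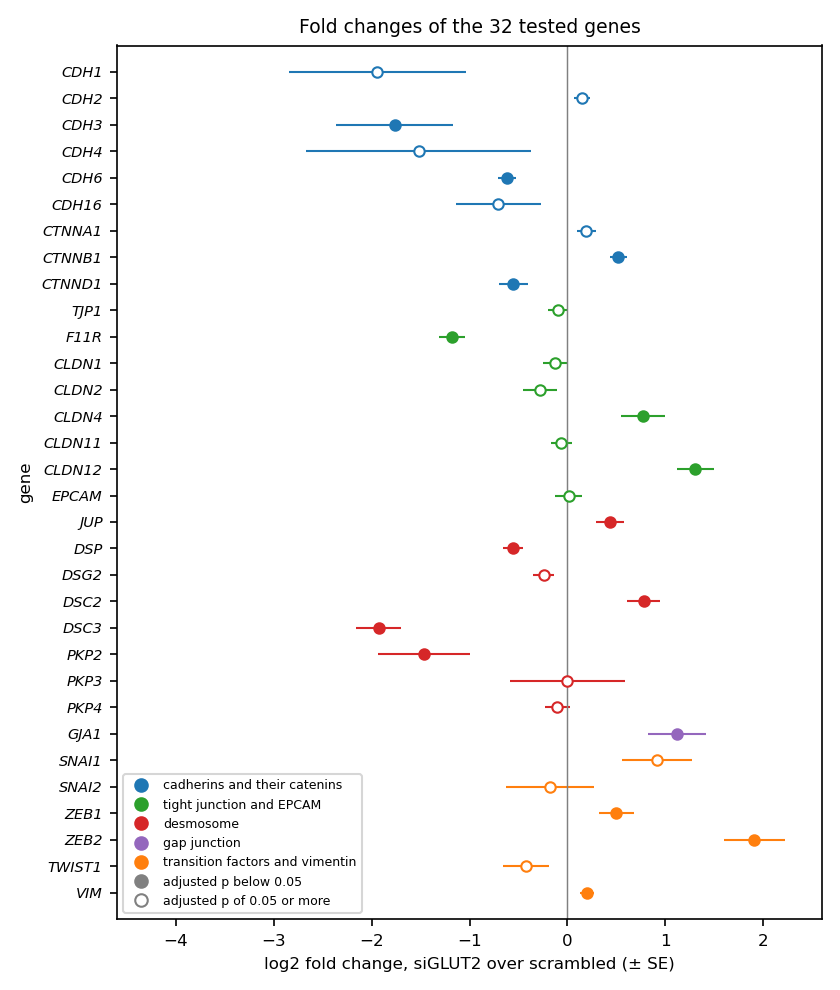
Log2 fold change (siGLUT2 over scrambled, n = 3 and 4 libraries) of the 32 tested genes, with bars of 1 SE, coloured by junction group; filled points have an adjusted p below 0.05. ZEB2 (1.91), CLDN12 (1.31) and GJA1 (1.12) lie farthest to the right, and DSC3 (-1.93) and F11R (-1.18) far to the left with short bars, while CDH1, CDH3 and CDH4 have wide bars.

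Among the cadherins, CDH6 (cadherin-6, a cadherin of the developing and adult proximal tubule; ENSG00000113361, GRCh38 chromosome 5, 31193750 to 31329146, plus strand) fell. It was counted at 223, 213 and 188 CPM in siGLUT2 libraries, against 308, 316, 333 and 320 CPM in scrambled libraries. The groups are well apart, and siGLUT2 replicate 4 was the lowest (-0.62 ± 0.09, adjusted p = 1.63e-05). CDH2 (N-cadherin, the other abundant cadherin of the tubule) stood at 322, 299 and 335 CPM in siGLUT2 libraries, against 286, 288, 287 and 291 CPM in scrambled libraries. All 3 siGLUT2 values were above the 4 scrambled values, but the difference of 0.15 ± 0.08 did not pass (adjusted p = 0.195). As a share of the counts of all 8 cadherins, CDH2 took 59.7% ± 3.01 in siGLUT2 libraries (SD, n = 3) and 46.1% ± 0.696 in scrambled libraries (n = 4), and CDH6 took 39.0% ± 3.08 and 51.2% ± 0.939. These shares do not depend on library scaling, and neither overlapped between the groups. CDH2 and CDH6 make up nearly all of the cadherin counts, so a smaller share of CDH6 raises that of CDH2, and the shares are not separate results. The log2 ratio of CDH6 to CDH2 counts was -0.53, -0.49 and -0.83 in siGLUT2 libraries and 0.11, 0.14, 0.22 and 0.14 in scrambled libraries.

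CDH1 (E-cadherin, the main cadherin of most epithelia) and CDH3 (P-cadherin) are neighbours on chromosome 16 (68737225 to 68835548 and 68636189 to 68722616, both plus strand), and both were counted rarely. CDH1 had 7, 0 and 8 counts in siGLUT2 libraries, against 28, 25, 10 and 25 counts in scrambled libraries. In CPM its groups touched, with 1.25 in siGLUT2 replicate 4 and 1.26 in scrambled replicate 3, and the change of -1.94 ± 0.91 did not pass (adjusted p = 0.118). CDH3 had 6, 6 and 21 counts in siGLUT2 libraries, against 61, 39, 55 and 19 counts in scrambled libraries, or 1.02, 0.863 and 3.28 CPM against 8.53, 4.67, 6.94 and 3.35 CPM. The CDH3 groups also came close, at siGLUT2 replicate 4 and scrambled replicate 4. Its fall (-1.77 ± 0.60, adjusted p = 0.0295) was lost without siGLUT2 replicate 2 (0.0603) or 3 (0.0914), without scrambled replicate 1 (0.134), 2 (0.0525) or 3 (0.0914), with limma-voom (0.055, or 0.106 with weights by group), after thinning (0.0696) and with a replicate block (0.127). The log2 ratio of CDH1 to CDH2 counts, with 0.5 added to each, was -7.98, -12.0 and -7.98 in siGLUT2 libraries and -6.17, -6.56, -7.76 and -6.02 in scrambled libraries. It was lower in every siGLUT2 library, and the value of -12.0 stands for the count of 0.

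The remaining cadherins were sparse. CDH16 (kidney-specific cadherin, found along the tubule) was at 5.28, 4.03 and 2.81 CPM in siGLUT2 libraries and at 4.48, 9.7, 5.93 and 6.16 CPM in scrambled libraries, with overlap (-0.71 ± 0.44, adjusted p = 0.248). CDH4 (R-cadherin) had 0, 10 and 0 counts in siGLUT2 libraries, against 13, 9, 11 and 9 counts in scrambled libraries. In siGLUT2 libraries, replicate 3 alone carried CDH4 reads at the scrambled level; the fold change of -1.52 ± 1.15 (adjusted p = 0.355) became -6.35 (adjusted p = 0.0388) without that library, a fitted value against counts of 0 and no measure of size. CDH13 (T-cadherin) had 1 count in all 7 libraries together. CDH11 (OB-cadherin, typical of mesenchymal cells) had 0 of 48340787 counts, which allows up to 0.0621 CPM. These limits cover counting error only.

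The 3 catenins did not move together. CTNNB1 (beta-catenin, which links cadherins to alpha-catenin and also carries Wnt signals; chromosome 3, 41194741 to 41260096) rose, with 241, 244 and 223 CPM in siGLUT2 libraries, against 157, 160.2, 175 and 166 CPM in scrambled libraries. The lowest siGLUT2 value exceeded the highest scrambled value by a wide margin (0.52 ± 0.09, adjusted p = 0.000139). CTNND1 (p120-catenin, which holds cadherins at the membrane) fell, with 48.0, 39.3 and 40.1 CPM in siGLUT2 libraries, against 65.6, 57.9, 56.6 and 69.7 CPM in scrambled libraries. Its groups were also apart (-0.56 ± 0.15, adjusted p = 0.0069). CTNNA1 (alpha-catenin, the link to actin) was at 165, 151 and 163 CPM in siGLUT2 libraries and 145, 133, 145 and 137 CPM in scrambled libraries; the values did not overlap, yet 0.19 ± 0.10 did not pass (adjusted p = 0.153).

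**Figure D2:**
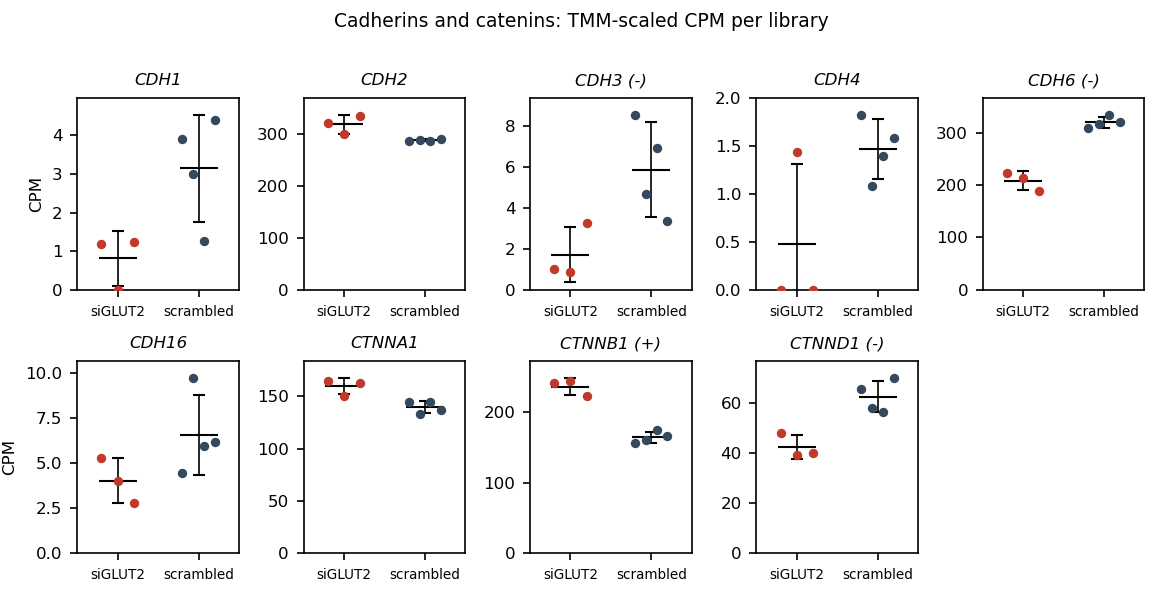
TMM-scaled CPM (vertical axes, from 0, separate for each gene) of 9 cadherin and catenin genes in 3 siGLUT2 libraries (red points) and 4 scrambled libraries (dark points); horizontal marks are means and bars 1 SD, and (+) or (-) marks a rise or fall with an adjusted p below 0.05. The CDH6 and CTNND1 points lie lower and the CTNNB1 points higher in siGLUT2 libraries, and CDH1, CDH3, CDH4 and CDH16 stay under 10 CPM.

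Of the tight junction genes, F11R fell and CLDN12 and CLDN4 rose. F11R (junctional adhesion molecule A, which recruits polarity proteins to tight junctions; ENSG00000158769, chromosome 1, 160995211 to 161021348, minus strand) was at 40.5, 39.4 and 40.0 CPM in siGLUT2 libraries, against 85.3, 98.4, 83.0 and 94.7 CPM in scrambled libraries. The siGLUT2 values were nearly identical to each other and all far below the scrambled ones (-1.18 ± 0.13, adjusted p = 6.88e-07). TJP1 (ZO-1, a scaffold that binds both JAM-A and the claudins) stood at 116, 119 and 106 CPM in siGLUT2 libraries, against 124, 127, 118 and 121 CPM in scrambled libraries, with overlap (-0.10 ± 0.10, adjusted p = 0.522). CLDN12 (a claudin without the usual PDZ-binding end; chromosome 7, 90383721 to 90513402, plus strand) was at 53.5, 45.3 and 44.0 CPM in siGLUT2 libraries, against 22.7, 15.0, 18.3 and 21.1 CPM in scrambled libraries. Each siGLUT2 value was well above each scrambled value (1.31 ± 0.19, adjusted p = 1.42e-05). Exons of GTPBP10 (555 counts over all libraries) and CDK14 (1226 counts) overlap those of CLDN12 on the same strand, so the source of reads in the overlap is uncertain.

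CLDN4 (a claudin of the distal nephron and collecting duct) was at 33.5, 41.7 and 77.7 CPM in siGLUT2 libraries, against 32.6, 24.5, 26.6 and 36.3 CPM in scrambled libraries. The siGLUT2 replicate 4 stood far above the rest and the groups overlapped. The rise of 0.77 ± 0.23 (adjusted p = 0.013) was 0.33 without siGLUT2 replicate 4 (adjusted p = 0.228), and the call was also lost without scrambled replicate 2 (0.0612) or 3 (0.0507). CLDN2 (the cation and water pore of the proximal tubule) was at 42.6, 35.7 and 26.4 CPM in siGLUT2 libraries and at 41.0, 44.1, 39.8 and 44.5 CPM in scrambled libraries (-0.28 ± 0.18, adjusted p = 0.252). CLDN1, a sealing claudin, had a mean of 79.5 ± 12.5 CPM in siGLUT2 libraries and 86.6 ± 6.5 CPM in scrambled libraries (adjusted p = 0.522), and CLDN11 had 146 ± 18.2 and 152 ± 9.55 CPM (adjusted p = 0.717). EPCAM, an epithelial adhesion protein that binds claudins, had 99.3 ± 23.7 and 98.5 ± 6.79 CPM (0.01 ± 0.14, adjusted p = 0.965). For CLDN1, CLDN11 and EPCAM the groups overlapped, and siGLUT2 replicate 4 was the lowest of the 7 libraries in each. OCLN (occludin) had 14, 5 and 0 counts in siGLUT2 libraries and 3, 7, 17 and 8 counts in scrambled libraries. CLDN7 had 0, 0 and 4 counts in siGLUT2 libraries and 7, 4, 6 and 1 counts in scrambled libraries, and ELP5 overlaps it on the opposite strand. OCLN and CLDN7 were too sparse to be tested.

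**Figure D3:**
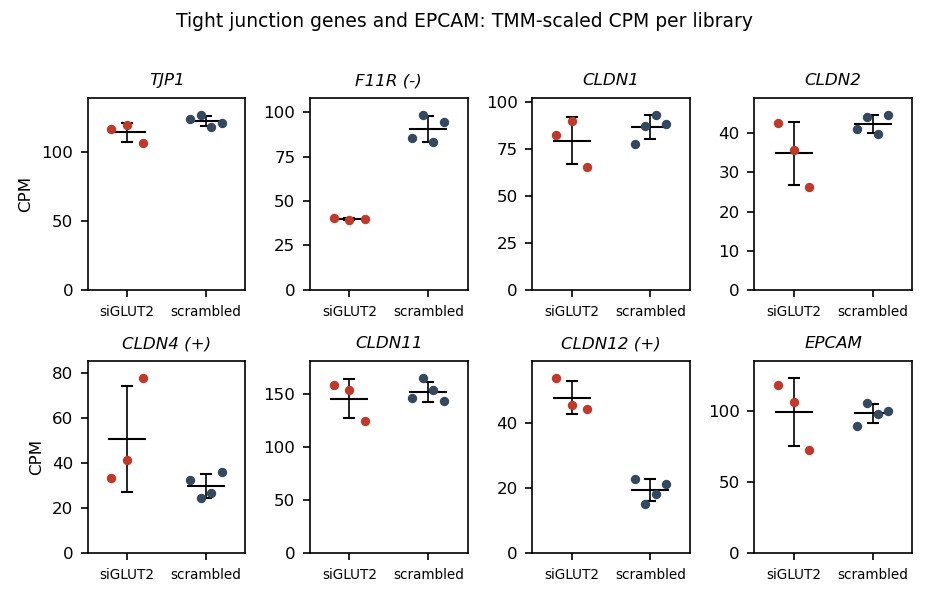
TMM-scaled CPM (axes from 0, separate for each gene) of 8 tight junction genes, EPCAM included, in 3 siGLUT2 libraries (red) and 4 scrambled libraries (dark), with means and 1 SD; (+) and (-) mark an adjusted p below 0.05. F11R lies near 40 CPM in all siGLUT2 libraries, CLDN12 lies at 44.0 CPM or more, and 1 siGLUT2 library at 77.7 CPM stands apart for CLDN4.

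An earlier scan of these same fold changes had singled out the 7-base words GACCTTA and ACCTTAA in 3' UTRs, so the words are a description here and no separate support. An siRNA can pair through a short stretch at its start with transcripts other than its target, mostly in their 3' UTRs. The longest 3' UTR of at least 50 bases among protein-coding GENCODE 29 transcripts was searched on the transcript strand, and the 2 words share 6 bases where they overlap. Either word stood in 1789 of 11621 tested genes (15.4%), of which 380 (21.2%) fell, against 1337 (13.6%) of the 9832 genes holding neither. Rises numbered 195 among the genes with a word and 1485 among those holding neither. The length of the 3' UTR, which bears on whether a word occurs, was not matched between these sets. Among the junction and transition genes 5 of 32 (15.6%) held a word, and they went in both directions. CDH6 and F11R fell, CLDN12 and ZEB1 rose, and CLDN1 did not pass. The sites are shown because these genes carry several of the changes above; capitals mark the word and 10 bases flank it on each side.
CDH6, chr5:31325470-31325496, plus strand: atagaacagcACCTTAAtcacacgatt
F11R, chr1:160996153-160996179, minus strand: tgaagttcttACCTTAAgagaattggg
CLDN1, chr3:190308187-190308213, minus strand: ttaacattagGACCTTAgaattttggg
CLDN12, chr7:90415763-90415789, plus strand: ttggaaaacaACCTTAAatgtggatgt
ZEB1, chr10:31527539-31527565, plus strand: agattagaaaACCTTAAtgactcagag
The bases outside the words differ between the 5 sites. Whether any of these transcripts was bound by the siRNA was not tested.

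Desmosome genes split, most clearly in the desmocollins, the pair of desmosomal cadherins DSC2 and DSC3. They lie side by side on the minus strand of chromosome 18 (DSC3 at 30990008 to 31042815, DSC2 at 31058840 to 31102522). DSC3 (desmocollin-3, mainly of basal and stratified epithelia) was at 6.98, 8.63 and 11.9 CPM in siGLUT2 libraries, against 41.1, 31.1, 33.6 and 34.0 CPM in scrambled libraries. DSC2 (desmocollin-2, present in nearly all desmosomes) was at 47.3, 44.2 and 42.5 CPM in siGLUT2 libraries, against 29.1, 26.9, 22.5 and 25.5 CPM in scrambled libraries. Neither gene's groups overlapped: DSC3 fell (-1.93 ± 0.23, adjusted p = 1.5e-06) and DSC2 rose (0.78 ± 0.17, adjusted p = 0.00126). The share of DSC3 among desmocollin counts was 12.9%, 16.4% and 21.8% in siGLUT2 libraries, against 58.6%, 53.6%, 59.9% and 57.1% in scrambled libraries. The log2 ratio of DSC3 to DSC2 counts thus differed by -2.73 between siGLUT2 and scrambled libraries, and by -2.97 to -2.51 with any 1 library left out.

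DSP (desmoplakin, which ties the desmosome to keratin; chromosome 6, 7541575 to 7586717, plus strand) fell, with 151, 142 and 126 CPM in siGLUT2 libraries, against 202, 218, 192 and 209 CPM in scrambled libraries. The groups were apart (-0.56 ± 0.10, adjusted p = 0.000157). The keratins KRT8 and KRT18, given above, fell in the same libraries. PKP2 (plakophilin-2, which links desmosomal cadherins to desmoplakin) had 6, 27 and 22 counts in siGLUT2 libraries, against 73, 58, 52 and 42 counts in scrambled libraries, or 1.02, 3.88 and 3.43 CPM against 10.2, 6.94, 6.57 and 7.4 CPM. Every siGLUT2 value was lower (-1.47 ± 0.47, adjusted p = 0.022), and the call was lost without siGLUT2 replicate 2 (0.0664) or scrambled replicate 1 (0.0946) or 4 (0.0509), with group quality weights (0.0854) and with a replicate block (0.0755). JUP (plakoglobin, the catenin shared by desmosomes and adherens junctions) was at 57.4, 82.9 and 70.6 CPM in siGLUT2 libraries, against 50.8, 51.5, 55.4 and 50.7 CPM in scrambled libraries. The siGLUT2 replicate 3 was the highest and replicate 2 was close to the scrambled values. The rise of 0.43 ± 0.14 (adjusted p = 0.0273) was lost without siGLUT2 replicate 3 (0.173) or scrambled replicate 1 (0.0693), 2 (0.0663) or 4 (0.0707), and with a replicate block (0.095).

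The other desmosome genes did not pass. DSG2 (desmoglein-2, the partner of DSC2 in simple epithelia) was at 113, 113 and 118 CPM in siGLUT2 libraries, against 132, 138, 119 and 154 CPM in scrambled libraries. Its values did not overlap, but siGLUT2 replicate 4 and scrambled replicate 3 were within about 1 CPM of each other (-0.24 ± 0.11, adjusted p = 0.102). PKP4, a plakophilin relative of adherens junctions and desmosomes, had 100.2 ± 14.0 CPM in siGLUT2 libraries and 108 ± 13.0 CPM in scrambled libraries (adjusted p = 0.589). PKP3 had 3.25 ± 1.37 CPM in siGLUT2 libraries and 3.26 ± 0.772 CPM in scrambled libraries (adjusted p = 0.998).

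**Figure D4:**
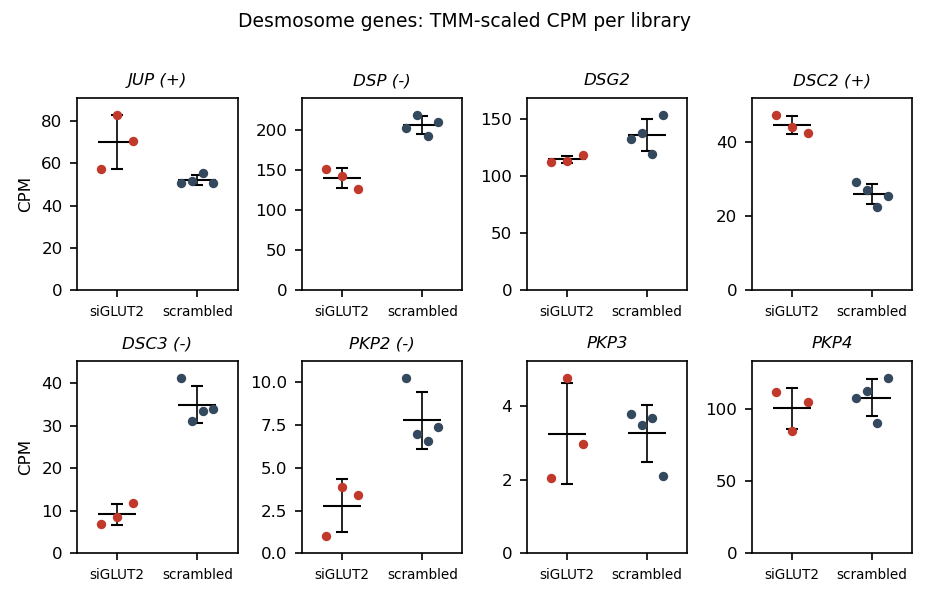
TMM-scaled CPM (axes from 0, separate for each gene) of the 8 desmosome genes in 3 siGLUT2 libraries (red) and 4 scrambled libraries (dark), with means and 1 SD; (+) and (-) mark an adjusted p below 0.05. DSC3 drops under 12 CPM in siGLUT2 libraries while DSC2 lies above 42 CPM, and DSP and PKP2 lie lower without overlap.

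Promoters were read from RefSeq (GRCh38.p14, 250 bases before to 50 after the transcript start), which held 23 of the 38 genes, and searched for the E-box CACCTG on both strands (CAGGTG on the other). This is the form of E-box known from work on E-cadherin repression by SNAI and ZEB proteins. It stood in the promoters of 7 of the 23 genes (30.4%), in 20.6% of all 27305 promoters and in 17.9% of the 9327 promoters of tested genes. The 7 were DSP, which fell, DSC2 and ZEB1, which rose, DSG2, TJP1 and CDH4, which did not pass, and OCLN, which was not tested. Among the genes without a RefSeq promoter, and so not searched, were CDH1 and, of those that fell, CDH3, CDH6, CTNND1, F11R and PKP2. Only 1 promoter per gene was searched, and for some genes it was that of a start inside the gene. For CDH4 the window was chromosome 20, 61499171 to 61499470, while the gene starts at 61252426. DSP held 2 E-boxes, starting 178 and 85 bases before the transcript start (positions -178 and -85), DSC2 held 1 at -156, and DSC3 held 0. The DSC2, DSC3 and DSP promoters are shown because these genes changed most firmly among the desmosome genes and in different directions; capitals mark the E-box.
DSP, chr6:7541421-7541720, plus strand: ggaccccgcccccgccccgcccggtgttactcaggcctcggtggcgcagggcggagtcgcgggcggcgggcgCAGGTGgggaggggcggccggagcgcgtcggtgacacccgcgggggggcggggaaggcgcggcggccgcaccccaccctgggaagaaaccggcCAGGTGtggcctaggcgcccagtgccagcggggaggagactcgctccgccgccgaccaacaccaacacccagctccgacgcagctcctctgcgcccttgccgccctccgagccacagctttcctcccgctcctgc
DSC2, chr18:31102372-31102671, minus strand: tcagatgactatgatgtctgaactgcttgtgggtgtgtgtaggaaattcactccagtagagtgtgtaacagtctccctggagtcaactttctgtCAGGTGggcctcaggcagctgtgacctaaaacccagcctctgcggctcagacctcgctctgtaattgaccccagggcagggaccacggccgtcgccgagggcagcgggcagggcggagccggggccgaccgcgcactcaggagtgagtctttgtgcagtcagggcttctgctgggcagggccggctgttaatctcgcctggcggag
DSC3, chr18:31042693-31042992, minus strand: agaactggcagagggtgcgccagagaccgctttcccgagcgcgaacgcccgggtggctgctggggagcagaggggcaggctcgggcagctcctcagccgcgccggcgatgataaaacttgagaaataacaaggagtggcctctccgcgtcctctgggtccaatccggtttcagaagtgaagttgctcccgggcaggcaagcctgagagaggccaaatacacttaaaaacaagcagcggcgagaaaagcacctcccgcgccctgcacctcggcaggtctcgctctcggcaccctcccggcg
Among the 3, the motif was thus present in the promoter of DSP, which fell, and of DSC2, which rose. It was absent from this window of DSC3, the gene with the largest fall of the 3. Of the genes that fell, only DSP and DSC3 were searched, so how the motif relates to falls cannot be read here. A match of letters does not show binding.

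The gap junction gene GJA1 (connexin 43, whose channels join the cytoplasm of adjacent cells; chromosome 6, 121435577 to 121449727, plus strand) rose. It was at 21.3, 25.3 and 16.2 CPM in siGLUT2 libraries, against 11.3, 13.8, 7.7 and 5.46 CPM in scrambled libraries. The lowest siGLUT2 library was above the highest scrambled library (1.12 ± 0.30, adjusted p = 0.00642). GJA1 has a processed pseudogene that can share its reads.

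Among the transition factors ZEB2 changed most. ZEB2 (a zinc-finger repressor of E-cadherin; ENSG00000169554, chromosome 2, 144364364 to 144524583, minus strand) was at 28.9, 12.5 and 27.6 CPM in siGLUT2 libraries, against 4.62, 6.82, 7.58 and 5.28 CPM in scrambled libraries. The siGLUT2 replicate 3 was lower than the other two siGLUT2 libraries but lay above all scrambled libraries (1.91 ± 0.31, adjusted p = 6.9e-05). ZEB1, its close relative, was at 38.1, 33.1 and 43.1 CPM in siGLUT2 libraries, against 21.7, 29.2, 29.2 and 27.6 CPM in scrambled libraries. The groups did not overlap, and 0.50 ± 0.18 passed narrowly (adjusted p = 0.0425). The ZEB1 call was lost without siGLUT2 replicate 2 (0.0579) or 4 (0.133), without scrambled replicate 1 (0.134), 2 (0.0634), 3 (0.0579) or 4 (0.0787), with DESeq2 (0.0521), with group quality weights (0.0573), without the low-count filter (0.0574) and with a replicate block (0.192). Its antisense partner ZEB1-AS1 had 52 counts over all libraries, and with the strand setting unknown its reads cannot be told from those of ZEB1.

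SNAI1 (Snail) was at 20.3, 20.7 and 8.74 CPM in siGLUT2 libraries, against 15.4, 5.75, 8.21 and 5.81 CPM in scrambled libraries. One library of each group went against its group, siGLUT2 replicate 4 and scrambled replicate 1, and 0.91 ± 0.36 did not pass (adjusted p = 0.0616). The adjusted p was 0.00809 without siGLUT2 replicate 4 and 0.0127 without scrambled replicate 1, and SNAI1 also passed with limma-voom (0.0483), with group quality weights (0.0412), without the low-count filter (0.019), after thinning (0.0461) and with a replicate block (0.0153). SNAI2 (Slug) was at 2.55, 4.17 and 9.52 CPM in siGLUT2 libraries and at 7.14, 6.94, 6.19 and 4.23 CPM in scrambled libraries (-0.18 ± 0.45, adjusted p = 0.81). TWIST1 was at 17.2, 13.5 and 17.2 CPM in siGLUT2 libraries and at 16.0, 24.4, 20.7 and 24.8 CPM in scrambled libraries, with overlap (-0.43 ± 0.23, adjusted p = 0.187). TWIST2 and the factor GRHL2, which maintains epithelial junction genes, had 0 counts in all 7 libraries.

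VIM (vimentin, the intermediate filament of mesenchymal cells, also present in cultured tubule cells) was at 1395, 1412 and 1422 CPM in siGLUT2 libraries, against 1214, 1112, 1312 and 1278 CPM in scrambled libraries. The siGLUT2 values were close together and above all scrambled values. The rise was small, 0.20 ± 0.07 (adjusted p = 0.0498), and the call was lost without siGLUT2 replicate 3 (0.113) or 4 (0.0817), without scrambled replicate 1 (0.119), 2 (0.166) or 4 (0.0668), with library totals as scaling (0.0533), without the low-count filter (0.0689) and with a replicate block (0.118).

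**Figure D5:**
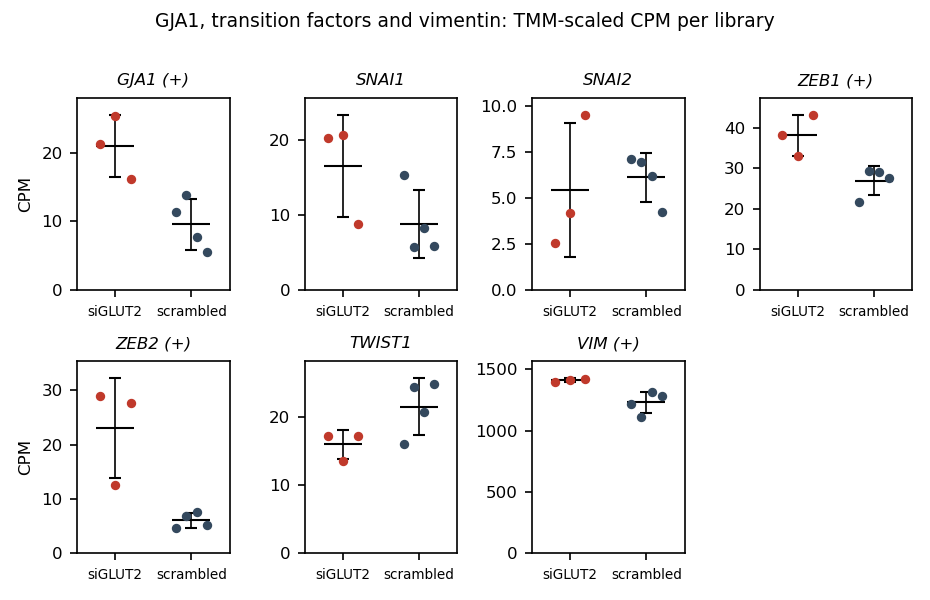
TMM-scaled CPM (axes from 0, separate for each gene) of GJA1, 5 transition factors and VIM in 3 siGLUT2 libraries (red) and 4 scrambled libraries (dark), with means and 1 SD; (+) marks a rise with an adjusted p below 0.05. ZEB2 lies at 12.5 CPM or more in siGLUT2 libraries against 7.58 CPM or less in scrambled libraries, while SNAI1, SNAI2 and TWIST1 overlap.

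The same fit was read for 104 other genes of these junctions and factors, of which 50 were tested, 15 rose and 8 fell. Of 10 tested genes of adherens junctions and further cadherins, 5 rose and 1 fell (median 0.64). VCL (vinculin, which reinforces the cadherin to actin link under tension) was at 410.5 ± 15.8 CPM in siGLUT2 libraries and 260.0 ± 13.2 CPM in scrambled libraries (0.66 ± 0.08, adjusted p = 2.63e-06). NECTIN3, an immunoglobulin-like adhesion molecule, rose by 0.89 ± 0.15, the actin-bundling LIMA1 by 0.83 ± 0.14 and CDH24 by 0.93 ± 0.22. Of 18 tight junction and polarity genes 2 rose and 3 fell (median 0.04). PARD6B, a scaffold of the apical polarity complex, fell (102 ± 9.33 against 184 ± 8.07 CPM, -0.85 ± 0.10), as did its kinase partner PRKCZ (-0.85 ± 0.19) and the scaffold MAGI1 (-1.07 ± 0.28), while CXADR, an adhesion molecule of tight junctions, rose (1.29 ± 0.28).

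Of 3 further desmosome genes 1 fell, EVPL (envoplakin, -0.83 ± 0.26), and PERP was at 13.9 ± 11.4 CPM in siGLUT2 libraries and 16.0 ± 3.55 CPM in scrambled libraries (adjusted p = 0.726). Of 5 tested genes on a list of further gap junction genes and pannexins, 3 rose and 1 fell. GJC1 (connexin 45) rose by 0.43 ± 0.09 and the pannexins PANX1 and PANX2 by 0.95 ± 0.30 and 0.77 ± 0.25. The PANX2 groups overlapped, with 19.9 CPM in siGLUT2 replicate 2 and 24.1 CPM in scrambled replicate 1. Of 6 tested epithelial factors 1 fell, ELF3, an epithelial ETS factor, at 25.3 ± 2.83 CPM in siGLUT2 libraries and 94.6 ± 15.8 CPM in scrambled libraries (-1.90 ± 0.16). SPINT2, an inhibitor of epithelial surface proteases, was at 193 ± 39.6 and 212 ± 22.8 CPM (adjusted p = 0.443). Of 8 factors linked to mesenchymal states 5 rose and 1 fell (median 0.73). HMGA2, a chromatin protein, was at 1033 ± 47.5 CPM in siGLUT2 libraries and 584 ± 36.5 CPM in scrambled libraries (0.82 ± 0.08), TCF4 rose by 1.00 ± 0.17 and RUNX2 by 1.24 ± 0.22, and TCF3, which like TCF4 encodes an E-box-binding E protein, fell (-0.62 ± 0.13). These counts stand beside the 13.9% and 14.4% of all genes that rose and fell.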

How the data were processed

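Per the labels' protocols, 125 ng of total RNA per sample was sequenced by a digital mRNA-seq service (3'-directed, single-end, 100 cycles). The authors deposited raw counts per Ensembl gene in whole numbers for 7 libraries; per the submitters' processing notes STAR, HTSeq, edgeR and hg38 were used, with no role or version stated. For the annotation release, the strand setting and molecular identifiers, nothing is stated in the labels or the file header. All 7 value columns were matched to samples by title, and 0 rows (0% of counts) named no gene.

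Groups came from the titles. Genes were kept by filterByExpr with a minimum count of 10 and a total of at least 15, and scaled by TMM. The minimum is turned into CPM at the median library size and must be reached in at least 3 libraries, the size of the smaller group. The quasi-likelihood test of edgeR 4.0.16 (R 4.3.3; glmQLFit after estimateDisp, both robust; no covariates) was adjusted by Benjamini-Hochberg over 12404 genes, with a threshold of 0.05. SE is the absolute log2 fold change divided by the square root of the F statistic. Alternatives were DESeq2 1.42.0, limma-voom (limma 3.58.1; also with a quality weight per group), RLE, upper-quartile and library-total scaling, no filter and a mean of at least 5 CPM, leaving out each library, a replicate block, thinning of counts to the smallest library, and a threshold of 0.01. Positions and 3' UTRs came from GENCODE 29 on GRCh38. Scripts were tested on simulated data. Since the replicates (biological, per the labels) are of 1 cell line, p-values measure only the spread between these libraries.

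The genes and lists were chosen with earlier results of these data known. All 38 genes are accounted for; from each list of other junction genes up to 4 with the smallest adjusted p below 0.05 are named, or, where fewer than 2 passed, up to 2 with the highest CPM; of each marker list the highest by CPM are named. A further gap junction gene and a tubule marker that these rules select are not reported here, though the totals include them.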

Additional observations from a re-analysis of the deposited data

Results flagged for a closer look

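JUP in scrambled libraries was set apart by 1 value: scrambled replicate 3 was at 55.4 CPM, against 50.7, 50.8 and 51.5 CPM in the other three, and its gap to the nearest was 0.837 of the range, above the 95% Dixon limit for 4 samples. Chance sets apart about 1 in 20 groups, and 35 groups were examined in this way. All 3 siGLUT2 libraries, at 57.4, 82.9 and 70.6 CPM, were above it.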

How the results depend on the processing

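The counts of rises and falls were 5 and 5 at an adjusted p below 0.01, where 2264 of all genes were called (1097 higher, 1167 lower). With any 1 library left out the rises ranged from 5 to 8 (5 without scrambled replicate 2) and the falls from 5 to 7. Over all genes the rises then ranged from 1384 to 1815 and the falls from 1404 to 1963, against 1723 and 1786 with all libraries. Of the 16 called genes 10 kept their call under every alternative, 6 lost it under at least 1, and 0 turned direction. Of the 16 uncalled genes 2 passed under at least 1 alternative (SNAI1 and CDH4) and 5 turned sign. EPCAM was at -0.0206 with limma-voom, -0.0207 with group weights, -0.00555 after thinning and -0.0547 with a replicate block, and PKP3 at 0.000105 with RLE, 0.0089 with upper-quartile scaling and 0.0406 with a replicate block. With 1 library left out EPCAM ranged from -0.14 to 0.19, PKP3 from -0.38 to 0.24, CLDN11 from -0.128 to 0.0355, PKP4 from -0.19 to 0.0049 and SNAI2 from -0.86 to 0.15. The SLC2A2 value, fitted against counts of 0 and so no measure of size, was -6.65, and -6.61 with a replicate block, where its call was lost (adjusted p = 0.0577). It had no value under the stricter filter, after thinning or without scrambled replicate 1, 2 or 4, where the low-count filter removed it. The cause of these changes was not tested. Same-numbered libraries did not deviate together (correlations of deviations 0.0151, 0.0284 and -0.0239), so the numbers were not taken to pair the samples; with the replicate block 7 genes rose and 5 fell, and 2649 of all genes were called. At these depths CDH1, CDH3, CDH4, PKP2, PKP3, SNAI2, OCLN and CLDN7 rest on 73 or fewer counts per library.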

Other observations

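Each claudin can also be read as a share of the claudin counts of its library. CLDN12 took 14.4%, 12.4% and 13.0% of the counts of the 6 claudins in siGLUT2 libraries, against 7.06%, 4.45%, 5.5% and 6.33% in scrambled libraries. CLDN11, the claudin with the largest share in every library, took 40.5% ± 3.23 in siGLUT2 libraries (SD, n = 3) and 45.9% ± 2.48 in scrambled libraries (n = 4), and CLDN2, the cation pore, took 9.66% ± 1.85 and 12.8% ± 0.608. The shares of all 3 were without overlap between the groups, while those of CLDN1 and CLDN4 overlapped. For CLDN11 the gap was narrow, with 42.8% in siGLUT2 replicate 2 and 43.0% in scrambled replicate 4, and its difference of -5.42 percentage points was -3.57 without siGLUT2 replicate 4. These are shares of a whole, so a larger share of 1 claudin lowers the others, and the levels of CLDN11 and CLDN2 did not pass the test.

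Some ratios of counts within a library, which do not depend on scaling, separated the groups. Those of F11R and ZEB2 restate changes given above, each against a partner that changed less, and are not separate results. The log2 ratio of F11R to TJP1 was -1.52, -1.60 and -1.41 in siGLUT2 libraries and -0.53, -0.36, -0.51 and -0.35 in scrambled libraries. The log2 ratio of ZEB2 to ZEB1 was -0.40, -1.40 and -0.64 in siGLUT2 libraries and -2.21, -2.09, -1.94 and -2.37 in scrambled libraries. The log2 ratio of JUP to CTNNB1, a pair of related catenins that both rose, was -2.07, -1.56 and -1.66 in siGLUT2 libraries and -1.62, -1.64, -1.66 and -1.70 in scrambled libraries, with overlap.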
